A study of Mus musculus with 6 samples.

Results

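The complement genes C1ra, C2, C3, C4b, Cfb, Cfd, Cd55, Cd59a and Masp1 were followed in 4434 cells, a mouse melanoma line with mutant Braf. They were chosen by name with the difference between + dox and − dox cells already known, so that difference is given for them as a description, with no p-value, and limma calls among them are only counted beside the share of all genes. Every probe set that the array annotation gives to exactly 1 of these genes was used. Of the 9 genes 6 were measured in this way, by 15 probe sets, out of 18193 genes in all. C4b stood only on a probe set that it shares with C4a, and C3 and Cfd were not named in the annotation used, so these 3 genes were not analysed here.

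All cells carried a doxycycline-inducible lentiviral vector for Oct4, Sox2, Klf4 and a blasticidin resistance gene, and a second vector for the transactivator with mCherry. In + dox cells the factors were induced with doxycycline, and the methods describe selection with blasticidin. In − dox cells the medium held no doxycycline, so doxycycline, selection and the factors cannot be told apart. The methods list mouse LIF, a cytokine of the IL-6 family, in the reprogramming medium. The paper describes the − dox medium only as lacking doxycycline. Each group gave 3 expression arrays at day 20, and neither labels nor methods say whether each array stands for its own culture. The p-values therefore measure only the spread between arrays, which may be technical. Of 10 melanocyte marker genes limma called 0, with Mitf at −0.76 (adjusted p = 0.343) and Sox10 at 0.11 (0.618). Of the 10, 2 were below the first quartile of the array in every array, Tyr (3.31 to 3.69) and Mlana (3.41 to 3.68). Pmel (5.25 to 5.43), Dct (4.21 to 4.61) and Mitf (6.17 to 8.15) lay above it in every array. Array + dox 1 was less like + dox 2 than + dox 3 was. Over genes the log2 values of + dox 1 correlated at 0.9867 with + dox 2 and at 0.986 with − dox 2. Between + dox 2 and + dox 3 the correlation was 0.9944. Correlations of + dox 1 with the other − dox arrays are not given, so nearness to the − dox group was not tested.

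Complement is a cascade of blood and tissue proteins that tags cells and microbes for removal. In the classical pathway C1q binds its target and activates the serine proteases C1r and C1s. In the lectin pathway mannose-binding lectin or ficolins bring MASP proteases in their place. Both sets of proteases cut C4 and C2 to build a C3 convertase, whereas the alternative pathway builds its own from C3b and factor B. Host cells carry membrane regulators that take convertases apart or block the membrane attack complex. Most circulating complement comes from the liver, but many other cells, tumour cells included, make single components.

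Among the 6 genes measured, 2 differed by over 2 on the log2 scale between the groups, in opposite directions. C1ra, the C1r protease gene of the classical pathway, was higher in + dox cells by 3.29 on the log2 scale (9.78-fold), and Masp1, a protease gene of the lectin pathway, was lower there by 2.06 (4.18-fold). C2, Cfb, Cd55 and Cd59a lay within 0.21 of no difference by their brightest probe set. The plot of all 15 probe sets shows the values of each array.

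**Figure D1:**
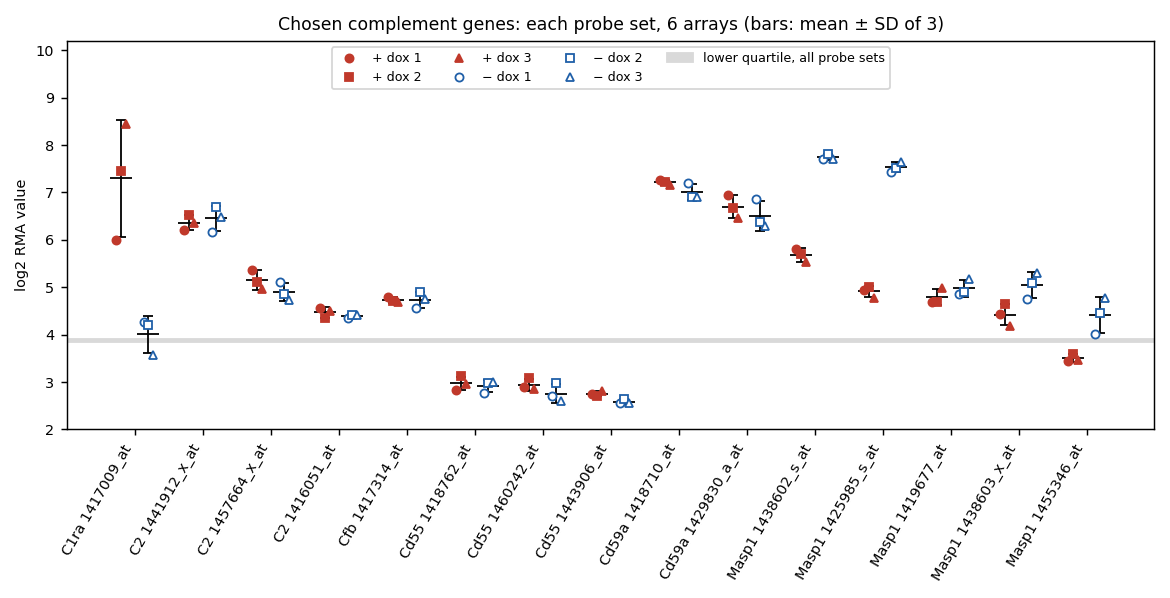
Log2 RMA value (vertical axis) of each probe set of C1ra, C2, Cfb, Cd55, Cd59a and Masp1 (horizontal axis) in 6 arrays. Red filled points belong to + dox and blue open points to − dox cells, black bars give mean ± SD (n = 3), and the grey band marks the first quartile of the arrays (3.84 to 3.90). C1ra spreads from 5.99 to 8.45 in + dox cells, Masp1 1438602_s_at stays between 5.53 and 5.81 there against 7.71 to 7.82 in − dox cells, and the 3 Cd55 probe sets lie under the band.

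The promoters of C1ra and of 2 complement genes outside the 9, C1s1 and Cr1l, are shown because these 3 genes were the complement genes called higher in + dox cells. C1ra and C1s1 are neighbours on chromosome 6, with 0 annotated genes between them. The 250 bases before the annotated start are given 5′ to 3′ in lower case from RefSeq (GRCm38.p6), and capitals mark a motif match.
C1ra (chr6:124512371-124512620, plus strand): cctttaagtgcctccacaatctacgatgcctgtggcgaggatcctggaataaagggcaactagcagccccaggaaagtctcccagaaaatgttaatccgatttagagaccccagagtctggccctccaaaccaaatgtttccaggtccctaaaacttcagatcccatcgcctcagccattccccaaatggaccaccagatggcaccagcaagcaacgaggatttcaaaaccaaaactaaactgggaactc
C1s1 (chr6:124542360-124542609, minus strand): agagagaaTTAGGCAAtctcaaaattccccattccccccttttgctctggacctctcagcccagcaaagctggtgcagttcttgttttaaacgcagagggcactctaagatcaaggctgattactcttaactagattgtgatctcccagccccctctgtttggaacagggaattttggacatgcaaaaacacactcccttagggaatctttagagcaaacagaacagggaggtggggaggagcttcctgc
Cr1l (chr1:195131571-195131820, minus strand): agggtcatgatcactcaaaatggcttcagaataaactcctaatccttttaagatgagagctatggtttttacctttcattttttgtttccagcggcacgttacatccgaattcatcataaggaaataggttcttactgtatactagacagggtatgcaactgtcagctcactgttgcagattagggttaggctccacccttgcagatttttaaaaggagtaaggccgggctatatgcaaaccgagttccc

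These windows were searched on both strands for the octamer ATGCAAAT of POU factors such as Oct4, the KLF motif GGGNGTGG, the STAT motif TTCNNNGAA (GAS), the interferon motif of GAAA, any 2 bases and GAAA (ISRE), the C/EBP motif TTGCNNAA and the NF-kB consensus, and on the gene's strand for TATAAA. The capitals in the C1s1 window are its only match, a C/EBP motif on the opposite strand, 242 to 235 bases before the start. A second annotated start of C1s1 had a KLF match 33 to 26 bases before it. Neither C1ra nor Cr1l held any of these motifs in its window. Of 32851 promoter windows of this length, 9.56% held the C/EBP motif, 15.9% the KLF motif, 1.6% the octamer, 7.02% the GAS, 2.98% the ISRE, 3.9% the NF-kB consensus and 7.59% TATAAA. Of the 6 measured genes C1ra, Cd55 and Cd59a had a window in the RefSeq table. Cd59a held 2 KLF matches (24 to 17 and 13 to 6 bases before the start) and an ISRE match (187 to 178 bases before it), and Cd55 held a KLF match (128 to 121 bases before it). A match of letters is not evidence of binding.

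C1ra had 1 probe set (1417009_at). Its log2 values were 5.99, 7.46 and 8.45 in + dox arrays 1 to 3, whereas − dox arrays 1 to 3 had 4.27, 4.20 and 3.56. The groups did not overlap, although + dox 1 was lowest of its group and + dox 3 highest. The means were 7.30 ± 1.24 and 4.01 ± 0.39 (SD, n = 3 each), a difference of 3.29 (SE 0.59). Set against the − dox mean, + dox 1 was higher by 1.98, + dox 2 by 3.45 and + dox 3 by 4.44. In − dox 3 the probe set was below the first quartile of the array, so the fold is approximate. A second probe set that the annotation gives to both C1ra and its close copy C1rb was left out, and whether 1417009_at also detects C1rb was not analysed here.

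Masp1 had 5 probe sets, all lower on average in + dox cells but by very different amounts. The gene gives several proteins by alternative splicing, among them the proteases MASP-1 and MASP-3 and, in human, a short form without the protease part. Which transcripts each probe set covers was not analysed here. The brightest, 1438602_s_at, stood at 5.81, 5.71 and 5.53 in + dox against 7.71, 7.82 and 7.71 in − dox arrays. This is a difference of −2.06 (SE 0.11) with an SD of 0.14 in + dox and 0.06 in − dox cells. For 1425985_s_at the values were 4.95, 5.01 and 4.78 against 7.43, 7.52 and 7.65, a difference of −2.62 (SE 0.11, 6.15-fold). In both of these the arrays of a group lay close together, and + dox 1 stood at −1.94 and −2.58 from the − dox mean.

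The other Masp1 probe sets differed less. Probe set 1455346_at had 3.45, 3.60 and 3.47 against 4.01, 4.46 and 4.78 (−0.91, SE 0.20), with its + dox values below the first quartile of the array. Probe set 1438603_x_at had 4.44, 4.64 and 4.19 against 4.76, 5.08 and 5.31 (−0.63, SE 0.18). In these 2 the groups did not overlap either. Probe set 1419677_at, at 4.69, 4.69 and 4.98 against 4.85, 4.90 and 5.18, overlapped between the groups (−0.19, SE 0.14). The mean of all 5 gave −1.28 for Masp1.

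C2 and Cfb encode the paired protease subunits of the classical and alternative C3 convertases and lie near each other on mouse chromosome 17. C2 had 3 probe sets and no common direction. The brightest stood at 6.20, 6.52 and 6.36 with doxycycline and 6.17, 6.70 and 6.49 without it (−0.09, SE 0.16). The others had differences of 0.26 (SE 0.15) and 0.08 (SE 0.10), and the groups overlapped in all 3. Cfb stood at 4.80, 4.71 and 4.69 against 4.56, 4.89 and 4.75, with both means at 4.73 (SE of the difference 0.11). For Cfb every + dox value lay between the lowest and the highest − dox value.

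Cd55 and Cd59a encode membrane regulators, decay-accelerating factor, which takes C3 convertases apart, and CD59, which blocks the last step of the membrane attack complex. In mouse each has a close copy, Cd55b and Cd59b. Cd55 was dim, since all 3 probe sets given to it alone were below the first quartile of the array in 6 of 6 arrays (2.55 to 3.12). A further probe set that the annotation gives to Cd55 and another gene was left out. Its differences were 0.06 (SE 0.12), 0.19 (SE 0.13) and 0.17 (SE 0.09). In 1443906_at, with 2.75, 2.70 and 2.80 against 2.55, 2.64 and 2.56, the groups did not overlap, but at this level the values carry little signal. Cd59a was brighter, at 7.26, 7.22 and 7.15 with doxycycline and 7.20, 6.90 and 6.91 without it (0.21, SE 0.11). The − dox 1 value lay among the + dox values. Its second probe set gave 0.19 (SE 0.20), and the groups overlapped there too.

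These differences were set beside all genes. The limma fit on all 18193 genes (adjusted p under 0.05) called 3.07% of them higher and 1.8% lower in + dox cells, and among the 6 genes C1ra was called higher and Masp1 lower. The groups did not overlap in 14.3% of genes in the higher and 12.6% in the lower direction, and among the 6 again in C1ra and Masp1. Over all 45037 probe sets 1.64% were called higher and 0.884% lower. Of the 15 probe sets described here 1 was called higher and 2 lower, both of the latter from Masp1. Groups did not overlap in 12% of probe sets upward and 11.4% downward, against 2 and 4 of these 15. Since the genes were picked with these values known, nothing is read from the counts. Leaving out 1 array at a time gave differences of 2.72 to 3.95 for C1ra, the lowest without + dox 3 and the highest without + dox 1, and of −2.13 to −1.99 for Masp1.

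The remaining complement genes came from a list drawn up by role. Of 52 such genes 43 were measured, of which 2 rose, C1s1 and Cr1l, and 1 fell, Csmd3, against the 3.07% and 1.8% of all genes. The other 40 did not pass. An unadjusted p under 0.05 was found for 7 of the 43, the 3 called genes among them, against 21.7% of all genes, and the median change was 0.03 against 0.01 over all genes. The plot by role shows most of them close to 0.

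**Figure D2:**
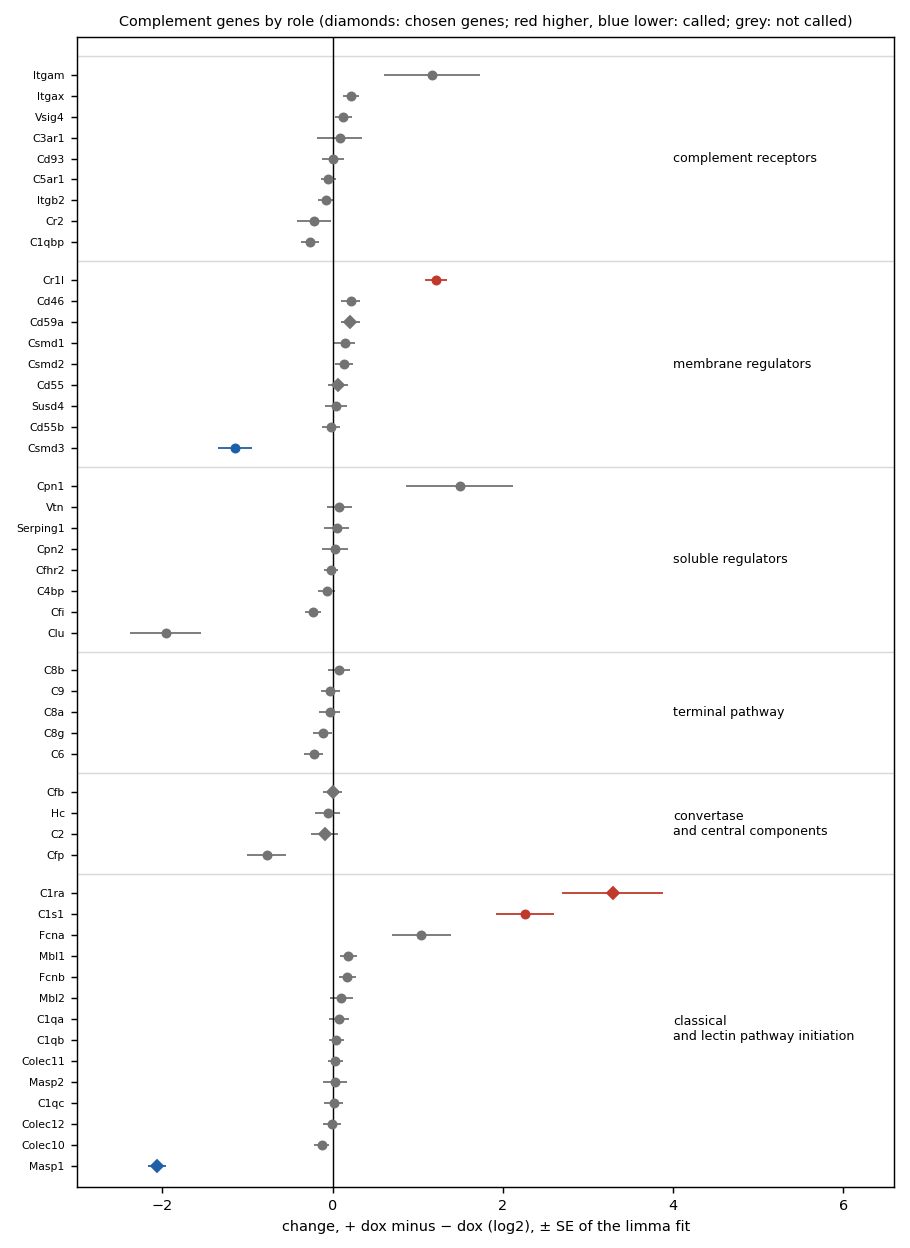
Change between + dox and − dox cells (horizontal axis, log2, ± SE of the limma fit) of 49 complement genes grouped by role (vertical axis). Diamonds are the 6 genes described here and circles the 43 others, with called genes in red (higher in + dox) or blue (lower) and the rest in grey. The classical and lectin initiation group holds both ends, C1ra at 3.29 and Masp1 at −2.06, and the 5 terminal genes lie between −0.22 and 0.08.

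Among genes that start the classical and lectin pathways, 1 of 12 others rose and 0 fell. C1s1, the gene of C1s and the protease partner of C1r in the C1 complex, stood at 5.28, 5.74 and 6.71 with doxycycline and at 3.65, 3.69 and 3.62 without it. All 3 + dox arrays were above all − dox arrays, with + dox 1 lowest and + dox 3 highest, the same order as in C1ra. C1s1 rose by 2.26 (SE 0.34, 4.78-fold, limma adjusted p = 0.0214). Its − dox values were below the first quartile of the array, so the fold is approximate. The call was lost without + dox 2 (2.34, adjusted p = 0.0858), − dox 2 (2.27, 0.0881) or − dox 3 (2.24, 0.0991). The annotation gives its probe set to C1s1 alone, but whether the set also detects the close copy C1s2 was not analysed here.

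The recognition molecules of the pathways did not pass the test. The C1q chain genes stood between 3.97 and 4.34 (C1qa), 3.03 and 3.20 (C1qb) and 3.39 and 3.66 (C1qc) over all 6 arrays, the latter 2 below the first quartile in every array. Their changes were 0.07, 0.04 and 0.01. Fcna, a ficolin gene, had 5.63, 7.06 and 6.52 in + dox against 5.32, 5.58 and 5.19 in − dox arrays, a change of 1.04 (SE 0.35, limma adjusted p = 0.145). Masp2, the other MASP protease gene, stood between 4.08 and 4.46 in all arrays and had a change of 0.02 (SE 0.14).

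Among 7 other membrane regulators 1 rose and 1 fell. Cr1l encodes Crry, which in rodents controls C3 convertases on most cells. It stood at 9.74, 9.93 and 10.16 with doxycycline and 8.64, 8.72 and 8.82 without it. The groups lay apart with little spread, and Cr1l rose by 1.22 (SE 0.13, 2.32-fold, limma adjusted p = 0.00864). Its 3 probe sets ranged from 0.19 to 1.22. Cr1l was not called with their mean (0.80, adjusted p = 0.101), with the one of largest variance (0.98, 0.182) or without − dox 2 (1.21, 0.0530). Csmd3, a large membrane protein gene with complement control domains that is best known from the brain, stood at 5.67, 5.45 and 5.44 against 6.40, 6.50 and 7.11. It fell by 1.15 (SE 0.20, limma adjusted p = 0.0316), 1 of its 3 probe sets had the opposite sign (0.07), and its call went when array 2 or 3 of either group was left out (largest adjusted p = 0.129). It was also not called with the mean of its probe sets (−0.87, adjusted p = 0.0599) or the one of largest variance (−1.54, 0.0637). Cd55b, the copy of Cd55, stood between 2.63 and 2.94 and had −0.02 (SE 0.11). Cd46, a cofactor for the cleavage of C3b, had 0.21 (SE 0.11).

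**Figure D3:**
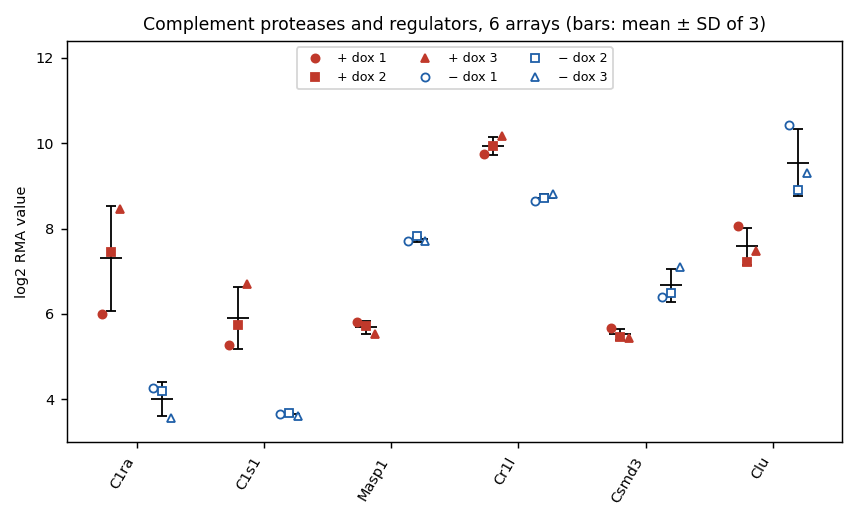
Log2 RMA value (vertical axis) of C1ra, C1s1, Masp1, Cr1l, Csmd3 and Clu (horizontal axis) in each array. Red filled points belong to + dox and blue open points to − dox cells, and black bars give mean ± SD (n = 3). Cr1l spans 9.74 to 10.16 with doxycycline and 8.64 to 8.82 without it, and in C1ra and C1s1 the + dox arrays spread more widely than the − dox arrays.

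No soluble regulator of the 8 measured passed the test. Clu, the gene of clusterin, which binds the forming membrane attack complex, stood at 8.07, 7.22 and 7.47 with doxycycline and 10.43, 8.90 and 9.31 without it. The groups did not overlap, and − dox 1 was the highest array. Its change was −1.96 (SE 0.42, limma adjusted p = 0.0513), with −2.14 to −1.83 over 4 probe sets. Clu was called in 7 of 14 alternative fits. Of the 6 fits that left out 1 array these were 2, without + dox 1 (−2.20, adjusted p = 0.0411) and without − dox 1 (−1.52, 0.0309). Cpn1, a subunit gene of carboxypeptidase N, which trims the peptides C3a and C5a, had 3.95, 5.18 and 6.69 against 3.81, 3.94 and 3.59. Array + dox 1 lay close to the − dox arrays and + dox 3 far above them (1.49, SE 0.63, adjusted p = 0.235), and without + dox 1 Cpn1 was called (2.16, adjusted p = 0.0400). Without + dox 3 its change was 0.79 (0.402), and with the mean of its 2 probe sets 0.85 (0.240). Cfi, the gene of the protease that cuts C3b, had −0.23 (SE 0.10, adjusted p = 0.235).

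Downstream of the convertases 0 genes were called. The 5 measured genes of the terminal pathway, which forms the membrane attack complex, had changes between −0.22 and 0.08, with C6 at −0.22 (SE 0.12, limma adjusted p = 0.334) and C8g at −0.12 (0.622). Hc, the mouse gene of C5, had −0.06 (SE 0.14). Cfp, the gene of properdin, which stabilises the alternative convertase, stood at 7.38, 6.68 and 7.35 in + dox against 7.84, 7.68 and 8.21 in − dox arrays (−0.77, SE 0.23, adjusted p = 0.116), and its other probe set had −0.04. Among 9 complement receptor genes C1qbp, whose protein is mostly mitochondrial, had −0.26 (adjusted p = 0.222) and the integrin gene Itgax 0.22 (0.246). Itgam, the α chain of complement receptor 3, had 3.51, 3.95 and 5.84 against 3.20, 3.26 and 3.33. Here + dox 3 was again the highest array and + dox 1 the lowest of the + dox group (1.17, SE 0.56, adjusted p = 0.301), and without + dox 3 the change was 0.47 (0.270).

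Complement genes are known to respond to interferon, to cytokines of the IL-6 family and to NF-kB, and genes of these routes were read beside C1ra and C1s1 without a test of any link. Of 19 interferon response genes limma called 0. Of the 19, 5 had an unadjusted p under 0.05, against 21.7% of all genes, and the list's median change was 0.93. Their arrays disagreed: the mean of the list was lower by 0.34 in + dox 1 than in − dox cells and higher by 1.5 in + dox 2 and 1.6 in + dox 3. Ifit3, for example, had 5.97, 10.91 and 10.55 against 7.24, 6.08 and 5.91. In C1ra + dox 1 stood above every − dox array, as it did in Jak1 of this list (10.57 against at most 10.39). C1ra too had its lowest + dox value in + dox 1, and a link to interferon was not tested. The interferon signalling genes Jak1 (1.04, adjusted p = 0.102) and Ifngr2 (−0.30, 0.151) did not pass.

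Of 22 acute phase and IL-6 family genes 2 rose and 1 fell, with a median change of 0.06. The transcription factor gene Cebpd stood at 8.77, 9.68 and 9.42 in + dox against 7.51, 6.99 and 7.48 in − dox arrays and rose by 1.96 (SE 0.26, limma adjusted p = 0.0158). Its other probe set had 0.38, and the mean of both gave 1.17 (0.0194). Il6ra, the IL-6 receptor gene, rose by 1.21 (adjusted p = 0.00984), with 0.26 for its other probe set and 0.74 for the mean of both (0.0297), and Socs3, a feedback inhibitor of STAT3 signalling, fell by 1.12 (0.00903). Of 17 NF-kB and TNF genes 2 rose and 0 fell: the chemokine gene Ccl2 by 2.77 (adjusted p = 0.00426) and the NF-kB subunit gene Rel by 1.20 (0.0158), with a median of 0.16. Ccl2 was called whichever array was left out. The other calls were lost without + dox 2 or + dox 3, and those of Il6ra, Cebpd and Rel also without − dox 2, and those of Cebpd and Rel without − dox 3 (adjusted p up to 0.0779 over all these fits).

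**Figure D4:**
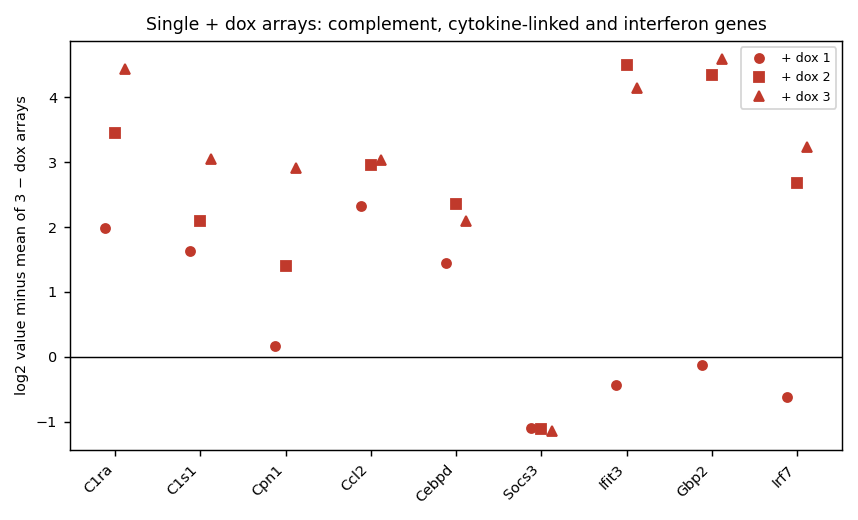
Log2 value of each + dox array minus the mean of the 3 − dox arrays (vertical axis) for complement genes, genes linked to cytokine signalling and interferon-induced genes (horizontal axis). Symbols mark the 3 + dox arrays. In C1ra and C1s1 array + dox 1 lies above 0, at 1.98 and 1.63, and in Ifit3, Gbp2 and Irf7 it lies below 0, at −0.44, −0.13 and −0.63, with + dox 2 and 3 far above.

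Other cell types that make complement were checked by their markers. Of 10 macrophage and myeloid genes limma called 0, and their mean level was 4.77 to 4.84 with doxycycline and 4.61 to 4.81 without it. Cd68 had 1.24 (adjusted p = 0.323) and Ctss −0.18 (0.444). The leukocyte gene Ptprc, at 2.78 to 3.08, was among the 2 of these 10 genes below the first quartile in every array. Csf1r, of the same list, lay at 5.79 to 6 and above the first quartile in every array. Of 7 hepatocyte genes 0 were called (mean level 4.78 to 4.86 against 4.69 to 4.82), with Apoh at 0.22 (adjusted p = 0.300) and Alb at 0.13 (0.443), the latter between 4.19 and 4.41 in all arrays. Of 7 adipocyte genes 1 fell, Fabp4 (−2.06, adjusted p = 0.0202, 2 of 4 probe sets with the opposite sign, −0.92 with their mean, call lost without + dox 2, − dox 2 or − dox 3). Adipoq lay at 2.80 to 3.01, 1 of 2 adipocyte genes below the first quartile in every array. Fibroblast genes gave 0 calls among 8 (5.18 to 5.39 against 5.21 to 5.46), with Dcn at 0.85 (adjusted p = 0.0525) and Col3a1 at −1.35 (0.102). The 8 epithelial genes had mean levels of 4.94 to 5.28 against 4.45 to 4.51 and a median change of 0.09. The keratin gene Krt14 was the 1 call (3.67, adjusted p = 0.00173). Of its 3 probe sets 1 had the opposite sign (−0.11), and their mean gave 2.01. In the same list Cdh1 lay at 3.60 to 3.72 and Epcam at 6.34 to 6.53, and 2 of the 8 genes were below the first quartile in every array. The 8 endothelial genes had 4.93 to 5.12 against 4.58 to 4.70, with 0 calls and a median change of 0.26. Tek had 1.61 (adjusted p = 0.219), with + dox 1 at 3.26 above the − dox mean, and Eng 0.52 (0.283). Pecam1 lay at 3.50 to 3.92 and Cdh5 at 4.39 to 5.19, and 2 of the 8 endothelial genes were below the first quartile in every array. The part of such cells in the values of C1ra and C1s1 was not tested, and in these bulk samples more cells of a type and more RNA per cell cannot be told apart.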

How the data were processed

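Total RNA of 6 samples was hybridised to Affymetrix mouse expression arrays. The deposited values are log2 expression levels per probe set, which the authors made by RMA normalisation in Chipster; its version and the chip definition file are not given in the sources used here. RMA makes the arrays alike in distribution, so changes are relative to the other genes, and precision is limited by how many arrays there are. Values were complete (0 missing) for 45101 probe sets, and the log2 scale was read from values between 2.08 and 14.44. After 64 controls were left out, 34945 probe sets had 1 gene symbol. Each of 18193 genes was represented by its probe set with the highest mean.

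Groups followed the labels. The test was the two-sided moderated one of limma 3.58.1 (R 4.3.3) without covariates, and p-values were adjusted by the Benjamini-Hochberg method over all genes or all 45037 probe sets, at 0.05. The fit was tested on simulated data. The genes and lists were chosen with earlier results of these data known. Named outside these 9 genes were, per list, the called genes that changed most (up to 4 in complement and 3 in other lists) or, failing any, the 2 of lowest p. C1qa, C1qb, C1qc, Fcna, Masp2, Cpn1, Cd46, Cd55b, Itgam, Ifit3, Gbp2, Irf7, Tyr, Mlana, Pmel, Dct, Ptprc, Csf1r, Adipoq, Cdh1, Epcam, Pecam1 and Cdh5 stood outside this rule and were named after their values were seen. Genes on shared probe sets were not analysed here. Same-numbered arrays correlated at −0.118, −0.22 and 0.0817 in their deviations from the group means and were not taken as pairs.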

Additional observations from a re-analysis of the deposited data

How the results depend on the processing

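Over the alternatives the difference was −2.62 to −1.28 for Masp1 and 2.72 to 4.08 for C1ra. As both were chosen on this difference, calls among the 6 genes are given as counts and support nothing. The gene and the probe set called higher became 0 each with the replicate block, an adjusted threshold of 0.01 or the treat test against 2-fold, and in fits without 1 array the count of genes called higher among the 6 was 0 or 1, as was that of probe sets. The samples share only a number, so the replicate block is no check of pairing; it left 205 genes higher and 98 lower of all, 1 of the other complement genes higher and 0 marker genes lower. Without 1 array all calls ranged from 90 to 951 higher and 23 to 699 lower, other complement genes from 0 to 4 higher and 0 to 2 lower, genes of the interferon, IL-6 and NF-kB lists from 1 to 16 higher and 0 to 4 lower, and marker genes from 1 to 3 higher and 0 to 2 lower. All these high ends came without + dox 1, except the 4 lower of the cytokine lists, without − dox 1. The 2 lower of the other complement genes were found in both of these fits. Leaving out both arrays numbered 1, which was chosen after seeing the data, gave 1871 and 1778 in all, 4 and 2 other complement genes, 20 and 5 of the cytokine lists and 7 and 2 markers. The threshold of 0.01 gave 101 and 27 in all, 1 and 0 other complement genes, 2 cytokine list genes higher and 0 markers lower. The treat test gave 46 and 5, 0 and 0, 1 and 0, and 0 markers lower. With the mean of all probe sets or the one of largest variance 1 other complement gene rose and 1 fell, and Csmd3 was then not called. With the largest variance the gene that fell was Clu (−2.14, limma adjusted p = 0.0499). Without the dimmest 20% of genes 2 other complement genes fell, as with quantile normalisation, 2 cytokine list genes fell and 2 markers rose. The cause of these shifts was not tested. Median centring and eBayes with trend and robust settings moved none of these counts by over 1.5 times.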
